A study of Caenorhabditis elegans with 8 samples.

Results

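In worms lacking the nuclear hormone receptor NHR-49, 97 genes that the count files list only by a cosmid-style sequence name (such as T01D3.6) had more reads than in the wild type, both with and without the organic peroxide tert-butyl hydroperoxide (tBOOH). They were selected on their expression, from 7369 rows with such a name among 14334 genes in the normalised table. Levels are given as CPM, the count of a gene relative to its library's total after scaling for library composition. A gene was chosen when its CPM + 1 in the lower nhr-49 library was at least 1.5 times that in the higher N2 library, once among untreated worms and once among treated worms. Of 100 such genes, K10D11.2, R05H10.1 and Y52E8A.3 were left out because tBOOH raised them at least 2-fold in every library of both genotypes. The genotype difference of the 97 genes therefore follows from how they were chosen and is given as a description, without a test.

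The worms were L4 larvae, the last larval stage, of the loss-of-function mutant nhr-49(nr2041) and of N2, the wild-type strain into which mutants had been crossed. Each genotype was sampled after 4 hr on 7.5 mM tBOOH and without treatment, giving 4 conditions of 2 libraries, numbered replicate 1 and 3. Values below follow that replicate order. The study describes the libraries of a condition as biological replicates, and neither it nor the labels say what separated them (cultures, days), so the p-values measure only the spread between these libraries. RNA came from whole worms, in which fewer cells of a type and less RNA per cell cannot be told apart.

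NHR-49 is a receptor of the HNF4 type whose role resembles that of mammalian PPARα. In C. elegans it is known for switching on genes of fatty acid β-oxidation and desaturation, in fed worms and during fasting. The study reports that it is also needed to induce a set of stress-responsive genes under organic peroxide. The genes described here had more RNA where the receptor was missing.

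Libraries held 2157766 to 5852727 counts, so that 3 counts, the most that a count of 0 allows, stood for 0.508 to 1.55 CPM (counting error only). The nhr-49 gene itself had 32.7 and 27.7 CPM in treated mutants against 110 and 108 CPM in treated N2, and 21.2 and 36.1 CPM in untreated mutants against 68.5 and 66.1 CPM in untreated N2. It was lower in each mutant library, and a count over the whole gene does not show which part of it was read. Replicate 3 of the mutant stood apart in markers of adult reproduction. The 5 yolk genes summed to 3531 CPM with tBOOH and 801 CPM without it in that replicate, against 67191 and 60088 CPM in mutant replicate 1 and 22787 to 84712 CPM in N2. The 11 oocyte and eggshell genes summed to 654 and 590 CPM there, against 5932 and 4016 CPM in mutant replicate 1 and 2453 to 5196 CPM in N2. The 38 sperm genes, of which 2 were at 0 in all libraries, summed to 784 and 369 CPM there, against 1578 and 1931 CPM in mutant replicate 1 and 1429 to 2193 CPM in N2. Markers of intestine, epidermis, body wall muscle, neurons and germ line were detected in every library. No gene of these 8 lists passed the expression part of the selection rule, applied here without regard to gene name. That part uses the lower mutant library, so low levels in mutant replicate 3 worked against yolk, oocyte and sperm genes passing. Whether tissue or stage composition contributed to the selected genes was not tested.

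Among 15 measured genes of a list tied to NHR-49, most of them of lipid metabolism, the exact test of edgeR called 9 lower and 0 higher in treated mutants than in treated N2, where 0.509% of all genes were called lower and 1.79% higher. Their median log2 fold change was -2.35, beside -0.05 over all genes. Without tBOOH it called 5 lower and 1 higher, where 0.195% of all genes were called lower and 0.802% higher, and the median was -1.84 beside -0.03. The 5 were the fatty acid desaturase genes fat-5 and fat-7, the acyl-CoA synthetase gene acs-2, cpt-5 of the carnitine palmitoyltransferase family and sodh-1, a sorbitol dehydrogenase family gene. With sodh-1, the flavin monooxygenase gene fmo-2 (lower with tBOOH) and the glyoxylate cycle gene icl-1 (not called) stand outside lipid metabolism proper. The one that rose was ech-9, an enoyl-CoA hydratase family gene. The study had already reported nhr-49-dependent expression of fmo-2, sodh-1 and icl-1, for fmo-2 also from this RNA sequencing. Their values are therefore no independent support. The genes of this list were not used to choose the 97.

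The 97 genes together made up 3660 and 4464 CPM in treated mutants, against 1066 and 844 CPM in treated N2. In untreated worms they summed to 4322 and 4686 CPM in the mutant, against 1024 and 962 CPM in N2. The ratio of the means was 4.25 with tBOOH and 4.54 without. The 10 genes with the most counts supplied 62.8% to 67.4% of the sum in the mutant libraries and 65.8% to 71.5% in the N2 libraries. The rest was spread over the other 87 genes. In all, 46 had at least 20 counts in every mutant library, and 10 had 3 counts or fewer in at least 1 mutant library. In N2, 18 were at 0 counts in all 4 libraries and 38 never exceeded 3 counts. Where N2 was above that floor, the median ratio of means was 3.61 without tBOOH (54 genes, 1.75 to 126) and 3.79 with tBOOH (55 genes, 1.72 to 55.8). With N2 set to the floor for the other genes, the medians were 4.83 over 96 genes and 4.88 over 97 genes.

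**Figure D1:**
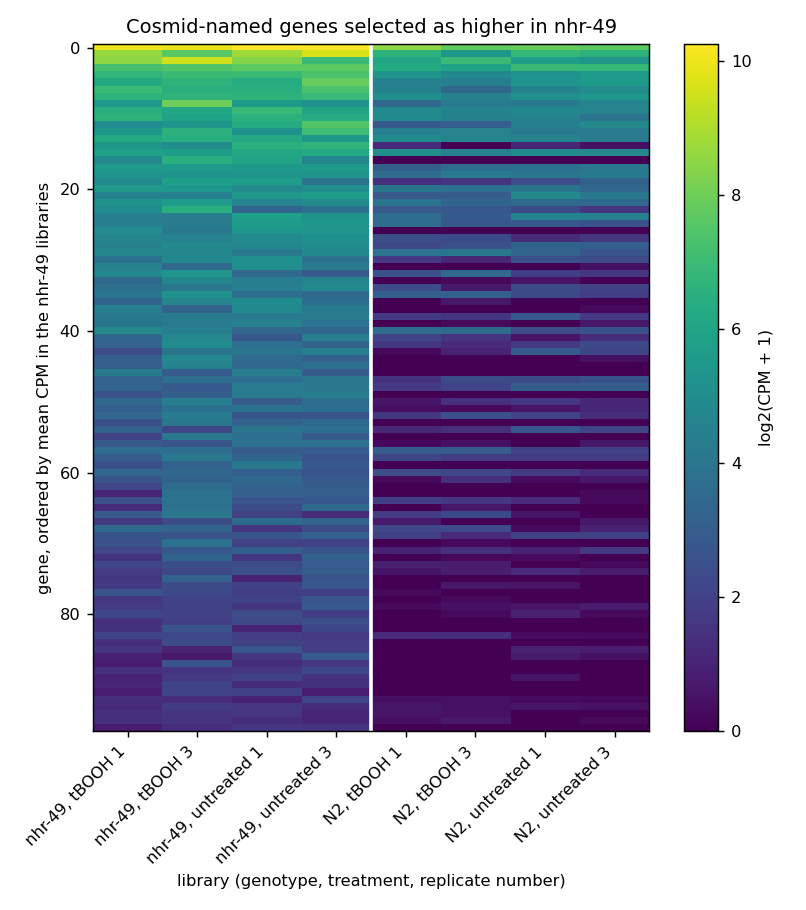
Each row is 1 of the 97 genes, ordered by mean CPM in the nhr-49 libraries, each column is a library, and colour gives log2(CPM + 1). Within each treatment both nhr-49 columns are above both N2 columns in every row, as the selection requires, and 18 rows are at 0 in all N2 columns.

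The same rule applied to the 6965 rows with a gene name picked 87 (1.25%, against 1.32% of the cosmid-named rows). C-type lectin genes (clec, 16 of 120 rows), oac genes (13 of 42 rows) and nuclear hormone receptor genes (nhr, 10 of 192 rows) were the most frequent among them. The mirror of the rule, higher in N2 and without leaving out genes raised by tBOOH, picked 62 cosmid-named rows (0.841%).

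Most counts came from T01D3.6 on chromosome V. With tBOOH it had 1008 and 971 CPM in the mutant, against 360 and 217 CPM in N2. Without tBOOH it had 1221 and 1165 CPM in the mutant, against 232 and 203 CPM in N2. All 4 mutant libraries lay above all 4 N2 libraries, and the ratio of means was 3.43 with tBOOH and 5.49 without. Per kilobase of exon the shorter F53A9.8 on chromosome X, which encodes 87 amino acids, had the higher mean level, at 854 CPM per kb in untreated mutants where T01D3.6 had 404 CPM per kb.

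F53A9.8 differed between replicates. In treated worms it had 368 and 729 CPM in the mutant, against 70.7 and 120 CPM in N2. In untreated worms it had 327 and 123 CPM in the mutant, against 50.8 and 39.5 CPM in N2. Mutant replicate 3 was the higher library with tBOOH and the lower one without it. Its neighbour F53A9.6 was also among the 97, with 7.01 and 16.2 CPM in treated mutants against 3.38 and 2.46 CPM in treated N2. T19D12.4, on chromosome II, had 390 and 197 CPM in treated mutants against 96.8 and 41.5 CPM in treated N2. Untreated, it had 448 and 789 CPM in the mutant, against 115 and 98.1 CPM in N2. It overlaps T19D12.5 and T19D12.6, and the library kit does not mark strand, so reads shared with them cannot be told apart. The same holds for all 14 of the genes that overlap another annotated gene.

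Infection response genes (irg), named for their induction by pathogens, made up 3 of the 97 under their current names. The normalised table held 8 irg genes. Of the other 5, 3 had higher means in the mutant in both treatments, as did 28.0% of all genes. None of the 5 had lower means in both, as 33.8% of all genes did. The irg-4 gene (F08G5.6), which encodes a CUB-like domain protein, had 106 and 127 CPM in treated mutants against 40.4 and 26.3 CPM in treated N2. Without tBOOH it had 126 and 164 CPM in the mutant, against 35 and 45.2 CPM in N2. Another CUB-like gene, irg-5 (F35E12.5), had 74.3 and 87.2 CPM in treated mutants against 28.9 and 24.1 CPM in treated N2. Neither gene's mutant libraries overlapped those of N2 in the same treatment, as the rule requires. The lowest in N2 was irg-6 (C32H11.1), with 64 and 84 counts in treated mutants against 0 and 1 in treated N2, and 41 and 38 counts in untreated mutants against 0 and 3 in untreated N2.

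The irg-5 gene stands on chromosome V beside 3 more of the 97, T01D3.6, F35E12.6 and F35E12.8 (cld-9), within a stretch of 9 protein-coding genes. F35E12.6 had 207 and 208 CPM in untreated mutants against 121 and 116 CPM in untreated N2. Its ratio of 1.75 without tBOOH was the smallest that could be given, and with tBOOH it was 2.36. Mutant replicate 3 without tBOOH was the highest library for cld-9, at 234 CPM beside 80.3 CPM in replicate 1, against 40.5 and 46.6 CPM in untreated N2.

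Among the other abundant genes, Y39G8B.9 varied most between libraries. It had 44.4 and 253 CPM in treated mutants against 9.47 and 17.4 CPM in treated N2. Untreated mutants had 46.6 and 35.7 CPM, against 17.9 and 23 CPM in untreated N2. A single library, treated mutant replicate 3, thus lay far above the rest. K11H12.4 had 125 and 87.8 CPM in treated mutants against 20.8 and 10 CPM in treated N2, and Y46D2A.2 had 99.2 and 102 CPM in treated mutants against 32.1 and 20.8 CPM in treated N2. The asah-2 gene (F27E5.1), of the acid ceramidase family that cleaves the sphingolipid ceramide, had 99.2 and 60.8 CPM in treated mutants against 31.1 and 21.8 CPM in treated N2. Without tBOOH it had 93.2 and 80.7 CPM in the mutant, against 22.1 and 13.8 CPM in N2.

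**Figure D2:**
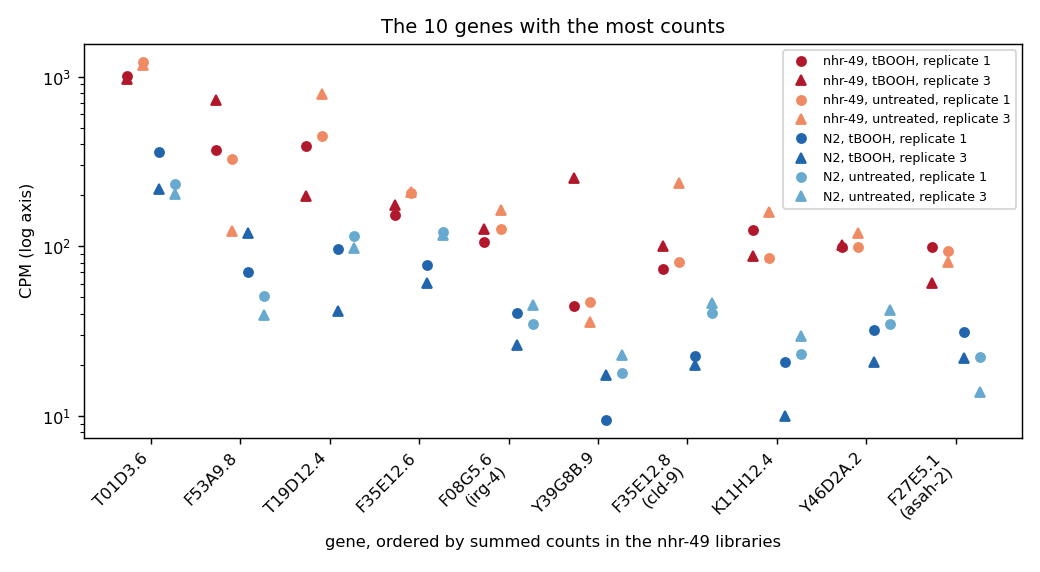
CPM on a log axis for the 10 genes with the most counts in the nhr-49 libraries; each point is a library, colour gives the condition and shape the replicate number (circle, 1; triangle, 3). T01D3.6 lies highest, at 971 to 1221 CPM in the mutant against 203 to 360 CPM in N2, and Y39G8B.9 has 1 mutant library at 253 CPM.

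The largest ratios belonged to genes with almost no reads in N2. T15D6.8, on chromosome I, had 117 and 411 counts in treated mutants and 121 and 66 counts in untreated mutants, against 0 in all 4 N2 libraries. Setting N2 to 3 counts per library, it was at least 105-fold higher with tBOOH and at least 69.0-fold higher without. Y65B4BR.1, on the same chromosome, had 178 and 163 counts in treated mutants against 8 and 0 in treated N2, and 173 and 280 counts in untreated mutants against 5 and 2 in untreated N2. Both genes were thus plain in every mutant library and near or at the floor in every N2 library. ZK218.5, on chromosome V, was at least 43.7-fold higher with tBOOH and at least 63.5-fold higher without, with 79 to 129 counts in the mutant libraries against 0 in the N2 libraries. The current name of C14C6.6 is gtnt-7, and it had 31 and 110 counts in treated mutants and 20 and 33 in untreated mutants, against 0 in N2. F55G11.7 had 32 and 60 counts in treated mutants against 2 and 1 in treated N2, and 27 and 32 in untreated mutants against 2 and 6 in untreated N2.

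The 18 genes at 0 in N2 summed to 492 and 1096 counts in treated mutants and to 414 and 426 counts in untreated mutants. Besides T15D6.8, ZK218.5 and gtnt-7 they included B0348.2, with 21, 37, 33 and 51 counts in the mutant libraries (tBOOH first), and C17A2.7, with 20, 77, 16 and 28 counts. Others were barely seen in the mutant either, such as K02E7.1, at 3, 7, 4 and 5 counts. For such genes the ratio is a bound set by the depth of N2. B0348.2, C17A2.7 and K02E7.1 were chosen after their values were seen.

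Among the better measured rest, from which 5 genes were chosen after their values were seen, C50B6.7 had 87.6 and 67.8 CPM in treated mutants against 27.6 and 23.5 CPM in treated N2. T16G1.7 had 40.6 and 95.3 CPM in treated mutants against 19.8 and 22.5 CPM in treated N2, and 34.7 and 135 CPM in untreated mutants against 16.8 and 17.1 CPM in untreated N2. Its mutant replicate 3 was the higher library in both treatments. C18H7.11 had 45.5 and 46.8 CPM in treated mutants against 7.61 and 11.2 CPM in treated N2, and F55G11.8 had 38.1 and 37.7 CPM in treated mutants against 11.7 and 17.4 CPM in treated N2. These 2 varied little between mutant libraries. At the other end, C52E2.4 had 9.32 and 9.30 CPM in untreated mutants against 4.14 and 4.98 CPM in untreated N2.

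The weakest of the 97 stood close to those left out. The smaller of the 2 ratios of CPM + 1 was 1.53 for W03G1.5, Y39G8B.9 and C14C6.8, the 3 genes just inside the threshold. It was 1.49 for F19C7.4 and 1.48 for Y69A2AL.2 and K09D9.1, the 3 just outside.

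Position along the chromosomes was not used in the selection. Of 96 genes found in the WBcel235 annotation, all protein coding, 32 were on chromosome V (33.3%, against 19.9% of cosmid-named rows), 20 on IV, 16 on II, 15 on I, 9 on X and 4 on III (4.17%, against 14.8%). With at most 10 protein-coding genes between neighbours, a distance chosen after the data were seen, 51 of the 97 (52.6%) fell into 16 groups. Of the 62 genes of the mirror rule, 10 (16.1%) did so. Neighbours can be similar in sequence and share reads, so they are not independent examples. Adjacent examples are F55G11.6, F55G11.7 and F55G11.8 on chromosome IV, C14C6.3, gtnt-7 and gtnt-8 on V, and K08D8.5 with irg-6 on IV. The proteins of the 96 had a median length of 366.5 amino acids (86 to 1028) and 7 coding exons, beside 327 amino acids and 5 coding exons over 6925 cosmid-named protein-coding rows.

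One stretch of chromosome I held 11 of the 97 among 46 consecutive protein-coding genes. In order they were F41D3.9, F41D3.11, F56H6.2, F56H6.7, C47F8.5, T09E11.9, T15D6.4 (bgnt-1.7), T15D6.8, T15D6.11, T15D6.12 (gtnt-46) and E03H4.4. Together they had 242 and 787 counts in treated mutants against 4 and 4 in treated N2, and 296 and 210 counts in untreated mutants against 4 and 5 in untreated N2. Apart from T15D6.8, E03H4.4 was the highest, with 38 and 116 counts in treated mutants against 0 and 3 in treated N2, and 60 and 32 in untreated mutants against 0 and 0 in untreated N2. T09E11.9 had 20, 40, 32 and 16 counts in the mutant libraries (tBOOH first) and none in N2, and T15D6.11 had 15, 55, 16 and 19 counts and none in N2. The lowest was F56H6.7, at 3, 16, 6 and 2 counts in the mutant and none in N2.

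Of the 35 remaining genes of this stretch 28 had more counts in the mutant, 2 had more in N2 and 5 had none. In all, 31 of the 35 had 0 counts in all N2 libraries, and 26 of those 31 were counted in the mutant. They summed to 1260 counts in the mutant against 51 in N2. The 7 that passed the rule carry gene names: gmd-2, nhr-81, oac-45, oac-44, oac-43, gly-16 and glct-3. Over the whole stretch, 39 genes had more counts in the mutant, 2 had more in N2 and 5 had none in any library. The sum was 93.4 and 291 CPM in treated mutants against 3.05 and 2.65 CPM in treated N2, and 267 and 180 CPM in untreated mutants against 2.76 and 4.60 CPM in untreated N2. On the log2 scale the mutant to N2 ratio of this sum was 6.07 with tBOOH and 5.92 without. Without replicate 3 these ratios were 4.94 and 6.60, and without replicate 1 they were 6.78 and 5.29, so each moved by more than 1.5-fold with 1 replicate left out. Across 19390 protein-coding genes found in the count table, 2992 had 0 counts in all N2 libraries and 683 of these (22.8%) were counted in the mutant. Among the genes of the stretch that were not selected it was 26 of 31 (83.9%), with the ends of the stretch set by selected genes. At least 20 counts over the mutant libraries with 0 in N2 were seen for 24 genes outside the 97, 9 of them in this stretch. With the 97 included it was 41 genes, a number that the selection does not change. The reverse, at least 20 counts over the N2 libraries with 0 in the mutant, was seen for 8 of all genes, although the N2 libraries were deeper.

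Higher counts in the mutant were not limited to the stretch. Counts here are not scaled for depth. Every N2 library held more counts in total than every mutant library, so more counts in N2 are not read as higher expression. The 20 protein-coding genes before the stretch had 2995 counts in the mutant against 4360 in N2, with more counts in the mutant for 7 and in N2 for 10. Of these, oac-16, nhr-82, nhr-265 and oac-27 passed the same rule, with 44, 162, 136 and 172 counts in the mutant against 1, 0, 1 and 33 in N2. The 20 genes after the stretch had 405 counts in the mutant against 330 in N2, with more counts in the mutant for 13 and in N2 for 3. None of those 20 passed the rule, and 11 of the 15 that were at 0 in N2 were counted in the mutant. The nhr-49 gene is on the same chromosome, with 488 protein-coding genes between it and the stretch. Several names in the stretch (bgnt, glct, gly, gmd and oac) are those of sugar transfer, nucleotide sugar or acyl transfer genes, given here as background.

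**Figure D3:**
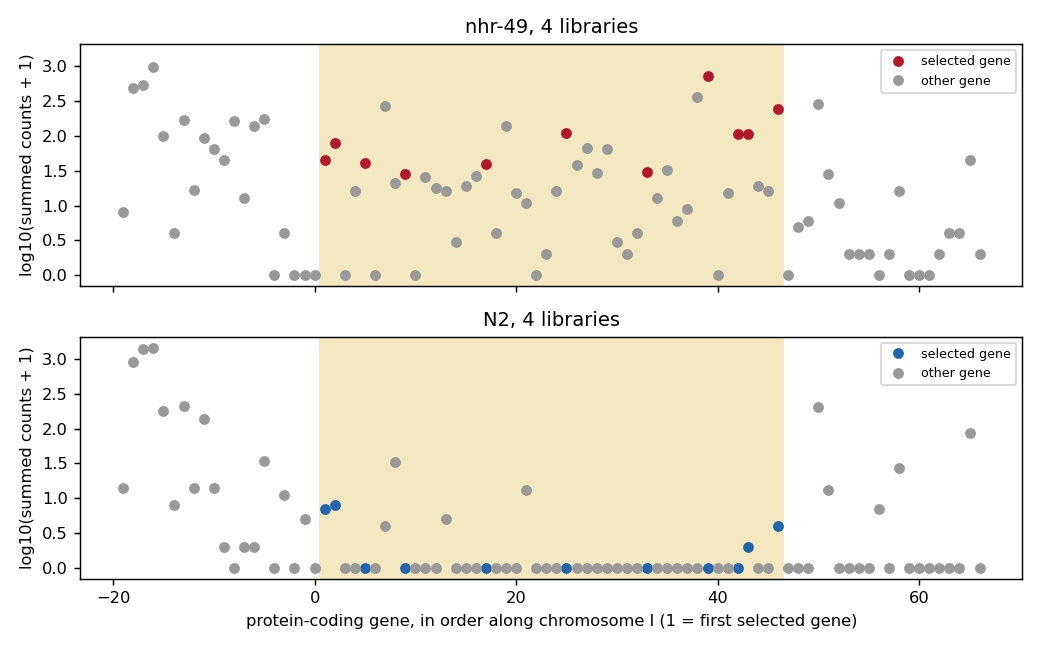
Summed counts over the 4 nhr-49 libraries (top) and the 4 N2 libraries (bottom), as log10(counts + 1), for protein-coding genes in their order along chromosome I; shading marks the 46 genes from the first to the last selected gene, with 20 genes on each side. Of the genes of the shaded stretch that were not selected, 26 of the 31 at 0 in N2 have counts in the mutant.

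A smaller group on chromosome V, ZK218.1, ZK218.3, ZK218.5, ZK218.7 and ZK218.11, took 5 of 7 consecutive protein-coding genes. The 5 had 396 and 213 counts in treated mutants against 0 and 0 in treated N2, and 245 and 225 in untreated mutants against 4 and 7 in untreated N2. ZK218.7 had 100 and 52 counts in treated mutants and 64 and 47 in untreated mutants, against at most 2 in any N2 library. ZK218.3 had 85 and 42 counts in treated mutants and 55 and 47 in untreated mutants, against at most 1. With tBOOH the sum was lower in mutant replicate 3 than in replicate 1, the reverse of the stretch on chromosome I. Of the 2 remaining genes between them, 1 had no count in any library and both together had 2 counts. Among the 20 protein-coding genes on each side of the group, 3 had more counts in the mutant and 10 had more in N2. These counts are not scaled for the greater depth of the N2 libraries, so no direction is read from them.

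Of the 97, 10 are now named gtnt, the most frequent of the 24 with a newer symbol in the RefSeq table. The group was noticed after the data were seen. The 10 are gtnt-7, gtnt-8, gtnt-9, gtnt-13, gtnt-22, gtnt-23, gtnt-25, gtnt-26, gtnt-30 and gtnt-46, on 4 chromosomes. They summed to 162 and 585 counts in treated mutants against 6 and 19 in treated N2, and to 144 and 242 counts in untreated mutants against 4 and 5 in untreated N2. All 10 were higher in mutant replicate 3 than in replicate 1 with tBOOH. On chromosome V, F36F12.1 (gtnt-25), F36F12.2 (gtnt-26), F22F7.4 (gtnt-23) and F22F7.3 (gtnt-22) lay among 8 consecutive genes, and had 562 counts in the mutant against 27 in N2. The 4 genes between them had 304 counts in the mutant against 361 in N2, each with more counts in N2. These counts are not scaled for the greater depth of the N2 libraries, so no direction is read from them. The highest of the gtnt genes was gtnt-25, with 42 and 121 counts in treated mutants against 0 and 1 in treated N2, and 37 and 62 in untreated mutants against 2 and 0 in untreated N2. It overlaps F36F12.7.

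Of 58 annotated gtnt genes 37 were in the normalised table. A gene could enter that table through the mutant alone, as gtnt-34, gtnt-43 and gtnt-45 did with 0 counts in N2, so no direction is read from the 27 that were not selected. Reads shared between similar copies could be placed on either by the counting, so single gtnt genes are less certain than their sum. The clc family, named for likeness to the tight junction protein claudin, gave clc-11, clc-19 and clc-25, 3 of its 21 genes in the normalised table. These 3 summed to 150 and 204 counts in treated mutants against 40 and 46 in treated N2. Another, clc-24, went the other way and passed the mirror rule. It had 3, 7, 3 and 0 counts in the mutant libraries (tBOOH first) against 23, 28, 42 and 43 in N2.

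**Figure D4:**
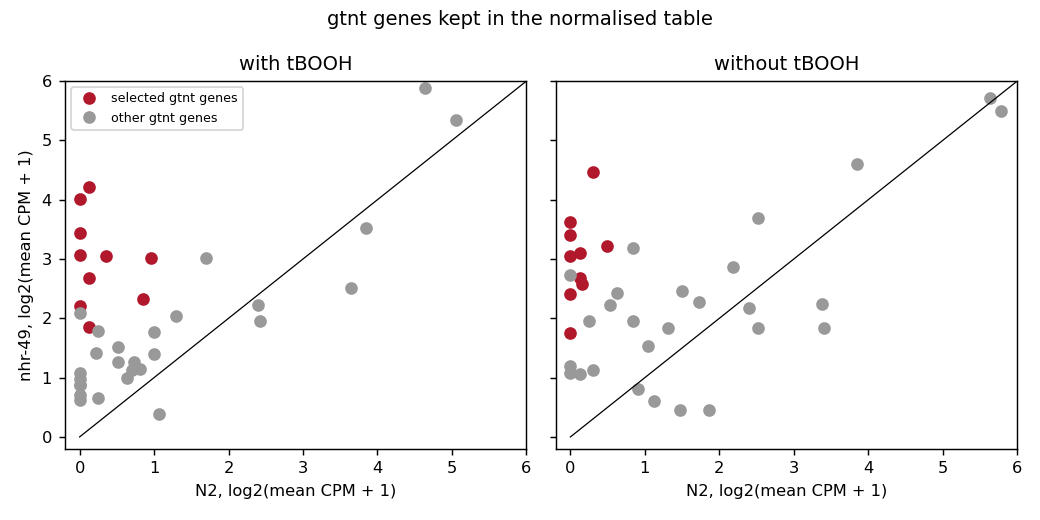
Log2(mean CPM + 1) of 2 libraries in nhr-49 (vertical) and N2 (horizontal) for the 37 gtnt genes of the normalised table, with tBOOH on the left and without it on the right; red marks the 10 selected genes and the line marks equal values. The red genes lie above the line in both panels, as the selection requires, and grey genes lie on both sides of it.

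The selection did not compare treated with untreated worms, except for the 3 genes left out. Among the 97 that remained, a response to tBOOH rarely passed the test. In the mutant, edgeR's exact test called 2 of the 97 higher with tBOOH (2.06%), where 2.72% of all genes were called, and 2 lower, where 1.91% of all genes were called. In N2 the 18 genes without any count cannot show a change. Of the other 79 it called 2 higher (2.53%), where 2.20% of all genes were called, and 3 lower (3.80%), where 3.14% of all genes were called. The shares called lower are near those of all genes. Those called higher are not a like comparison, since 3 genes raised by tBOOH in both genotypes had been left out. That also bears on how many lay above and on the medians that follow. In the mutant both tBOOH libraries lay above both untreated ones for 17 of the 97, where 19.6% of all genes did, and below them for 27, where 18.9% of all genes did. In N2 they lay above for 20 of the 79, where 32.3% of all genes did, and below for 23, where 27.5% of all genes did. The median log2 fold change was -0.12 over the 97 in the mutant, beside 0.04 over all genes, and -0.19 over the 79 in N2, beside 0.05 over all genes. Over 8 libraries the common biological coefficient of variation was 36.2%, which limits what 2 libraries a condition can show.

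The largest rise in the mutant was that of W09G12.7. It had 29.9 and 85.5 CPM in treated mutants against 8.81 and 12.3 CPM in untreated mutants, a log2 fold change of 2.44 (DESeq2 SE 0.61, edgeR adjusted p = 0.00409, n = 2 each). Its libraries did not overlap, but the replicates with tBOOH lay nearly 3-fold apart. In N2 it had 5.92 and 5.87 CPM with tBOOH against 3.91 and 2.11 CPM without, a change that did not pass (log2 fold change 0.98, edgeR adjusted p = 0.523). ZK1037.6 had 26.2 and 40 CPM in treated mutants against 10.4 and 6.70 CPM in untreated mutants (log2 fold change 1.97, edgeR adjusted p = 0.0148). In N2 its log2 fold change was 1.65 and did not pass (edgeR adjusted p = 0.0880).

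F49E12.9, now drd-1 (named for down-regulation under dietary restriction), was the only one of the 97 called in both genotypes. In the mutant it had 30.6 and 38.5 CPM with tBOOH against 78.2 and 182 CPM without, and it fell by 1.92 on the log2 scale (DESeq2 SE 0.48, edgeR adjusted p = 0.00485). In N2 it had 6.43 and 7.39 CPM with tBOOH against 20.5 and 28.7 CPM without, and it fell by 1.83 (DESeq2 SE 0.51, edgeR adjusted p = 0.0113). The difference between the 2 log2 changes was not past the test. Y65B4BR.1 fell by 1.36 in the mutant, where it had 41.6 and 33.9 CPM with tBOOH against 89.6 and 104 CPM without (edgeR adjusted p = 0.0479). In N2 its 8 or fewer counts a library leave a change undetectable at this depth.

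In N2 the 2 that rose were low. T26H5.8 had 21 and 20 counts with tBOOH against 1 and 5 without (log2 fold change 2.52, DESeq2 SE 0.93, edgeR adjusted p = 0.0194). F13A7.11 had 15 and 21 counts with tBOOH against 2 and 0 without (edgeR adjusted p = 0.0205). Both also had more in treated than untreated mutants, with log2 fold changes of 1.64 and 2.32 that did not pass (edgeR adjusted p = 0.127 and 0.0842). C55B6.1, on the X chromosome, fell by 1.70 in N2, where it had 6.26 and 7.01 CPM with tBOOH against 27.1 and 16.1 CPM without (DESeq2 SE 0.45, edgeR adjusted p = 0.00513). C45B2.2, also on X, had 1 and 5 counts with tBOOH against 28 and 18 without, and fell by 3.12 on the log2 scale (edgeR adjusted p = 0.0268). Each of these 9 calls was lost when some library was left out, and edgeR's quasi-likelihood test called none of them. In the mutant no call stood without replicate 3 of either treatment (adjusted p 0.0614 to 0.315). The calls of drd-1 and Y65B4BR.1 were lost without treated replicate 1, and those of W09G12.7 and Y65B4BR.1 without untreated replicate 1. In N2 no call stood without either treated library, and only drd-1 without untreated replicate 1 (adjusted p = 0.0422) and C55B6.1 without untreated replicate 3 (adjusted p = 0.018) did.

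**Figure D5:**
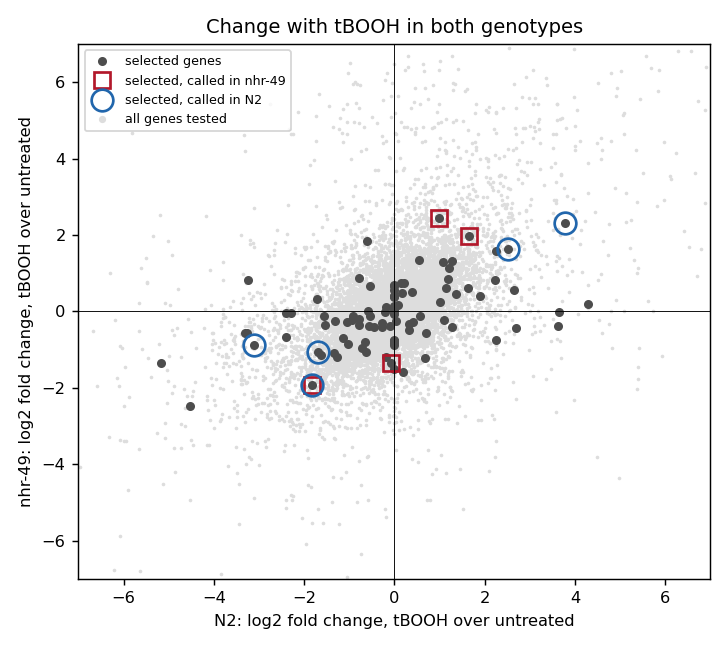
Log2 fold change of tBOOH over untreated in nhr-49 (vertical) and N2 (horizontal); dark points are the 97 selected genes, pale points all genes tested (those beyond 7 are not drawn), squares mark the 4 genes called in nhr-49 and circles the 5 called in N2. The selected genes spread around 0, and drd-1 is the only one with both marks.

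Whether tBOOH acted differently in the 2 genotypes was asked with an interaction term. The quasi-likelihood test of edgeR called 0 of the 97 and 0% of 14334 genes, with 4 of the 97 and 523 of all genes at an unadjusted p under 0.05. DESeq2 also called 0 of the 97. The lowest p belonged to K08D8.5, which had 20.1 and 18.5 CPM in treated against 49.7 and 40.5 CPM in untreated mutants, and 11.7 and 5.87 CPM in treated against 5.98 and 4.98 CPM in untreated N2. Its log2 interaction was -1.91 (edgeR adjusted p = 1). For T24C4.4 (clc-19), which overlaps clc-20, it was -1.68, for Y39G8B.9 it was 2.47 (called once the filter on low genes was dropped, adjusted p = 0.00171), and for gtnt-23 (F22F7.4) it was -3.08. For gtnt-23 N2 had 5 counts or fewer in every library. K05F6.10 had 9 counts or fewer in every library, and its value of -3.86 rests on 0 counts in untreated N2.

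Agreement between the mutant replicates differed with treatment. Without tBOOH, 48 of the 97 were higher in replicate 3 and 19 (19.6%) were over 2-fold apart, against 28.2% of all genes. With tBOOH, 67 were higher in replicate 3 and 30 (30.9%) were over 2-fold apart, against 20.7% of all genes. The rule used the lower mutant library of each treatment, so the selection itself shaped this spread. All genes are therefore not a like comparison for it. The median log2 ratio of replicate 3 over replicate 1 was 0.40 for the 97 with tBOOH and 0.02 for all genes. This is the same replicate in which yolk and oocyte markers were low. Its part in the level of the 97 was not tested. The selection rule itself required each of the 97 to be above both N2 libraries in mutant replicate 1, so that cannot answer the question.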

How the data were processed

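Whole-worm RNA of 8 libraries was sequenced after ribosomal RNA removal, with a kit that does not mark strand. Per the submitters' processing notes, reads were aligned with STAR to ce10. The authors deposited whole-number counts per gene (42048 rows, none normalised) and a normalised signal table, which recomputation showed to be edgeR CPM with TMM scaling for 14334 genes above 1 CPM in at least 2 libraries (largest difference 4.5e-06). The genes and lists were chosen with earlier results of these data known.

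Tests used the deposited counts in edgeR 4.0.16 (R 4.3.3): the exact test with tagwise dispersions from all 8 libraries, Benjamini-Hochberg adjustment over 14334 genes, called at adjusted p under 0.05, and a quasi-likelihood test for the interaction. Standard errors came from DESeq2 1.42.0. The code was tested on simulated data. Named genes were the 10 with most counts, the 10 largest ratios (at least 20 counts per mutant library), the called tBOOH changes, the 5 lowest interaction p, the largest neighbour groups and the 3 genes on each side of the threshold. Some others were named after their values were seen: F53A9.6, irg-5 and F55G11.8, those at 0 in N2, the better measured rest, and gtnt and clc genes. Gene order, names and protein lengths came from WBcel235, so no ce10 coordinates are given, and sequences and product classes were not used here. Alternatives covered tools, scaling, filters, dispersions, replicate blocks and left-out libraries.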

Additional observations from a re-analysis of the deposited data

Results flagged for a closer look

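T24C4.4 (clc-19) had tBOOH libraries below untreated ones in the mutant and above them in N2, without overlap in either. It had 24.8 and 22.5 CPM in treated against 28.5 and 34.2 CPM in untreated mutants, and 4.57 and 3.98 CPM in treated against 1.38 and 2.11 CPM in untreated N2. The log2 interaction of -1.68 had an unadjusted p of 0.0121 and an adjusted p of 1 in edgeR's quasi-likelihood test.

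Counts also stood outside the normalised table. Of the 12 genes of the chromosome I stretch that it leaves out, 7 were counted in the mutant, with 17 counts in all, against 0 genes and 0 counts in N2.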

How the results depend on the processing

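None of 361 recomputed values changed direction, though any counts of genes among them have no direction to change. They included those of 42 mutant to N2 ratios (named genes and the stretch of chromosome I, with and without tBOOH). The selection largely fixes the direction of these ratios, so it is no support for them. The rule gave 97 genes, but 52 at a 2-fold threshold, 337 to 519 when 1 replicate number was left out (95 and 90 of the 97 among them), 107 and 78 with an added constant of 0.5 and 2, and 95 without TMM scaling. Leaving out a replicate number loosens the genotype conditions, so all 97 met them again. Only the step that leaves out genes raised by tBOOH could remove any, so the 95 and 90 are no support for the selection. With at most 5 genes between neighbours, 44 in place of 51 genes were in neighbour groups.

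For tBOOH in the mutant, the 2 higher and 2 lower calls became 0 and 0 in edgeR's quasi-likelihood test (8 and 8 at an unadjusted p under 0.05), 1 and 0 with dispersions from the 4 libraries compared, and 0 to 6 and 0 to 2 with 1 library left out. DESeq2 and dropping the filter each left 1 lower call. For tBOOH in N2, the 2 higher and 3 lower calls became 0 and 0 in the quasi-likelihood test (11 and 11 at an unadjusted p under 0.05), 5 and 8 with dispersions from the 4 libraries, and 0 and 0 to 1 with 1 library left out. DESeq2 left 1 higher call there and kept 7 of the 9 calls in all. The interaction gave 1 call, Y39G8B.9, without a filter. The causes were not tested. A lone library left in a condition was assumed to vary like the others.

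The replicate numbers pair no samples in the labels. Deviations of same-numbered libraries correlated from -0.0396 to 0.353 over the 6 pairs of conditions. With the replicate block, the quasi-likelihood test called 1 higher and 1 lower with tBOOH in the mutant, 0 higher and 2 lower in N2, and 0 interactions. Ratios taken within replicate number gave 139 genes. At 2157766 to 5852727 counts per library, genes at 0 to 3 counts in N2 have only a bounded ratio.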
